A study of Drosophila melanogaster with 3 samples.

Results

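The meiotic arrest genes of the Drosophila melanogaster testis were followed in ovaries whose germ line carried sva53. The genes listed were topi, aly, comr, tomb, achi, vis, can, mia, sa and nht, 10 in all. A gene was analysed where the annotation of the array gave at least 1 feature (a spot with its own probe) that named this gene and no other. This held for 8 of the 10 genes, with 10 features between them, out of 10805 genes on the array. The genes vis and sa had no feature of their own, and 2 further features were annotated to achi and vis together. Features of a gene were averaged on each array.

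In testis, spermatocytes switch on a large set of genes for meiotic division and sperm formation. Mutants of the meiotic arrest genes stop before the first meiotic division with many of these genes silent. Members of the aly class encode or associate with tMAC, a testis form of the Myb-MuvB complex that binds DNA. Members of the can class encode testis TAFs, paralogs of subunits of the general transcription factor TFIID. Both classes are known for their work in the male germ line.

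RNA was hybridised to 3 Agilent arrays with 2 colours. Channel 1 (Cy3) held RNA of ovaries with a germ line from sva53 pole cells, where the donor embryos came from germline clones homozygous for sva53[M1] made with the FLP/FRT/DFS system. Channel 2 (Cy5) held RNA of ovaries with a germ line from sva53/+ pole cells. In both, the pole cells, which are the founders of the germ line, were moved into host embryos of osk-homozygous mothers, and flies were about 7 days old. Each of the 3 mutant RNAs came from 2 pairs of ovaries of an independent experiment, and a single control RNA from 3 pairs of ovaries was used on every array. Donors of the mutant germ line had mothers with a mutant germ line, so loss of the maternal product and the genotype of the cells themselves cannot be told apart. Only the germ line carried the donor genotype, while the soma of the ovary, follicle cells included, was that of the host in either channel.

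Each value below is a log2 ratio, mutant over control. The labels give both dyes, and the numerator of the deposited ratio is not among them. The software used writes red over green, so the direction given here is likely, not stated, and every sign turns if the numerator was Cy3. Dyes were not swapped, so a dye bias of a probe remains in its ratio. The control was 1 RNA, so its own spread is not in any test. Ratios give no level, so whether a testis gene was expressed in either ovary cannot be read from them, and the tissue could not be checked by the presence of its markers. The number of arrays limits the precision. The SD of the ratios over features was 0.488, 0.347 and 0.339 on arrays 1, 2 and 3. An exact 0, which can mark an unmeasured ratio, occurred at 0 features of the 8 genes.

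The question was which of these regulators differed between the genotypes. Of the 8 measured genes, 1 (topi) fell and 0 rose at an adjusted p under 0.05 with limma's moderated test, fitted over 15415 features with Benjamini-Hochberg adjustment. That is 12.5% of the members, where 13.9% of all features were called in either direction and 7.23% were called lower. The share of members called was therefore near that of the table as a whole. At an unadjusted p under 0.05 with limma 3 members were lower (topi, tomb and comr) and 0 higher, where 18.3% of all features were lower and 18% higher. Of the 8 members 4 (topi, tomb, comr and can) lay below 0 on all 3 arrays and 0 lay above it on all 3, where 29.9% and 28.9% of all features did so. The place of can in this count rests on -0.003 on array 1, next to 0. The median of the 8 means was -0.10, and the median over all features was -0.003.

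**Figure D1:**
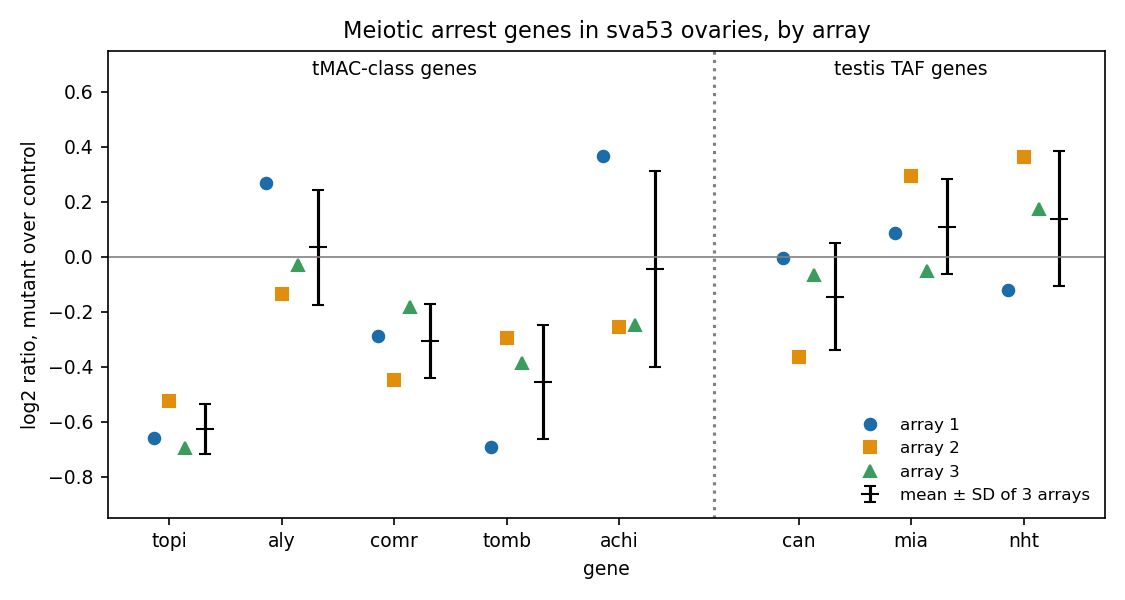
Log2 ratio of mutant over control (vertical axis) of the 8 measured genes, with 1 symbol per array and the mean ± SD of 3 arrays in black; features of 1 gene were averaged. topi, comr and tomb lie below 0 on all arrays, from -0.70 to -0.18, while aly, achi, mia and nht lie on both sides of 0.

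Among the genes of the aly class, topi encodes a zinc-finger protein of tMAC that is thought to bring the complex to DNA. Its feature read -0.66 on array 1, -0.52 on array 2 and -0.70 on array 3. All 3 pools were below the control, between -0.70 and -0.52. In the mutant topi was 1.54-fold lower, with a mean log2 ratio of -0.63 ± 0.09 (SD, n = 3), a 95% interval from -0.79 to -0.46 and an adjusted p of 0.0336 with limma. In RNA of whole ovaries, fewer cells of a type and less RNA per cell cannot be told apart. The SD of topi over the arrays was smaller than the median of 0.118 over all features, and 37.7% of features had a smaller SD still.

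A mean as low as that of topi, or lower, was found for 3.07% of all features. The mean of topi was number 474 from the lowest of 15415, and 298 of the 474 features at or below it were called. With any 1 array left out topi read between -0.68 and -0.59, and the adjusted p with limma lay between 0.089 and 0.146. Under those fits limma called 0 features of the whole table, so no call in any list below remained with 2 arrays, while 3277 to 4710 features had an unadjusted p under 0.05. In a test against a change of 1.5-fold topi was not called (adjusted p 1 with limma's treat).

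The gene tomb encodes a tMAC protein with a cysteine-rich CXC domain, which binds DNA, and is the testis paralog of mip120. It read -0.69, -0.29 and -0.39 on arrays 1, 2 and 3. All arrays were below 0, with array 1 apart from the others. The mean of -0.46 ± 0.21 (SD, n = 3) missed the threshold (95% interval from -0.73 to -0.19, adjusted p 0.0578 with limma). It passed with arrays scaled to a common spread (-0.44, adjusted p 0.0339 with limma) and with array weights (-0.35, adjusted p 0.0285). Those settings called 2838 and 5804 features of the whole table, against 2135. In the RefSeq gene table tomb overlaps Cap-D3, a condensin subunit gene, whose feature set read -0.24, -0.12 and -0.14 (mean -0.16, adjusted p 0.113 with limma). Whether the tomb feature also takes up transcripts of Cap-D3 was not tested.

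The gene comr encodes a nuclear protein of tMAC that is needed for aly protein to stay in the nucleus. It read -0.29, -0.45 and -0.18 on arrays 1, 2 and 3, again below 0 on each. Its mean of -0.31 ± 0.13 (SD, n = 3) missed the threshold (95% interval from -0.51 to -0.11, adjusted p 0.0666 with limma). It passed with array weights (-0.39, adjusted p 0.0183 with limma), a setting that called 5804 features against 2135.

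The gene aly encodes the testis paralog of mip130, a homolog of the worm gene lin-9. Averaged over its 2 features it read 0.27, -0.13 and -0.03, with a mean of 0.03 ± 0.21 (SD, n = 3) that missed the threshold (95% interval from -0.24 to 0.31, adjusted p 0.825 with limma). The average hides a disagreement between the features. Its first feature read 0.09, -0.44 and -0.29, with a mean of -0.21, and its second read 0.44, 0.17 and 0.22, with a mean of 0.28. The second feature was above the first on every array, and in a fit of single features neither passed (adjusted p 0.293 and 0.0812 with limma). No direction can be given for aly.

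The genes achi and vis lie next to each other and encode nearly identical homeodomain proteins of the TGIF family, which work with aly and comr. Hybridisation may not separate such copies. The average of the 2 achi features read 0.37, -0.26 and -0.25, with array 1 above 0 and the others below, and a mean of -0.05 ± 0.36 (SD, n = 3; 95% interval from -0.48 to 0.39, adjusted p 0.853 with limma). Its first feature read 0.40, 0.01 and 0.29, and its second read 0.33, -0.52 and -0.78. The features were close on array 1 and lay apart on arrays 2 and 3. The features shared by achi and vis read 0.42, 0.08 and 0.13 for the first, and 0.25, 0.28 and 0.15 for the second. All of these shared values were above 0, as were those of the first achi feature, so the second achi feature stood alone in its negative values. In the fit of single features, where 15.2% of 21939 features were called, none of these 4 passed (adjusted p between 0.0663 and 0.395 with limma).

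**Figure D2:**
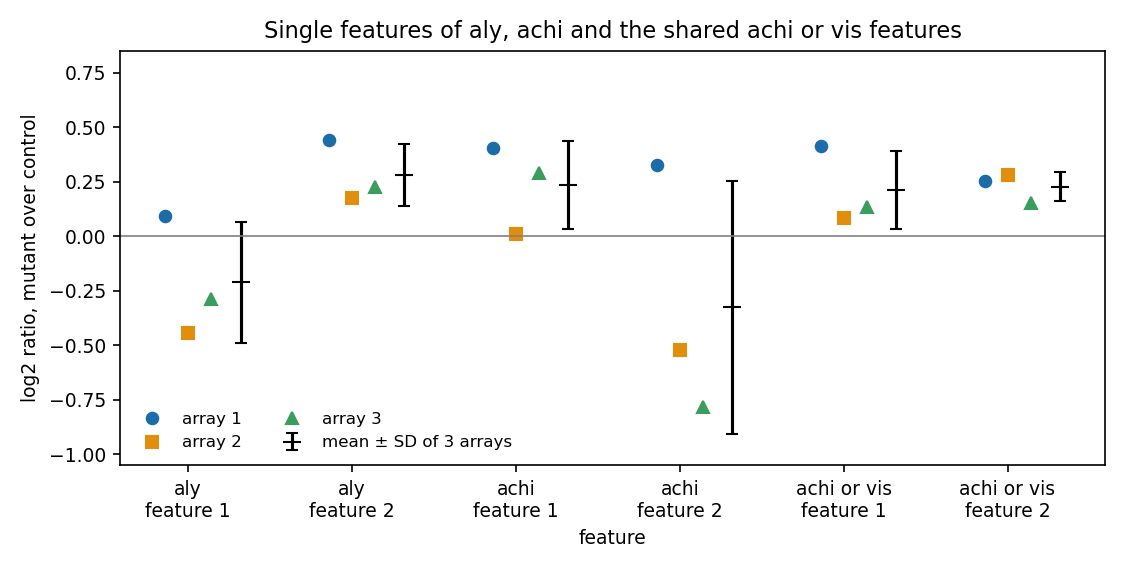
Log2 ratio of mutant over control (vertical axis) of each feature of aly and achi and of the features annotated to both achi and vis, by array, with the mean ± SD of 3 arrays in black. The aly features have means of -0.21 and 0.28, and the second achi feature is below 0 on arrays 2 and 3 where the other achi features are above.

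The testis TAF genes were close to the control, with wide intervals. The gene can, for the testis paralog of Taf5, read -0.003, -0.36 and -0.07 on arrays 1, 2 and 3. Array 2 was lowest and array 1 was at the control. Its mean was -0.14 ± 0.19 (SD, n = 3; 95% interval from -0.40 to 0.11, adjusted p 0.328 with limma).

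The gene mia, for the testis paralog of Taf6, read 0.09, 0.29 and -0.05, with values on both sides of 0. Its mean was 0.11 ± 0.17 (SD, n = 3; 95% interval from -0.13 to 0.35, adjusted p 0.41 with limma). The gene nht, for the testis paralog of Taf4, read -0.12, 0.36 and 0.17, again on both sides of 0. Its mean was 0.14 ± 0.25 (SD, n = 3; 95% interval from -0.17 to 0.45, adjusted p 0.425 with limma). For each of the 3 genes the interval leaves room for a difference as large as that of comr in at least 1 direction, so these arrays do not show that the genes were alike in both ovaries.

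By mean ratio the order from lowest was topi, tomb, comr, can, achi, aly, mia and nht. Neighbours in this order had overlapping 95% intervals throughout. The median of the 5 measured genes of the aly class was -0.31, and that of the 3 testis TAF genes was 0.11. The classes did not separate gene by gene, since aly and achi lay among the testis TAF genes. No test was made of the difference between the classes.

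**Figure D3:**
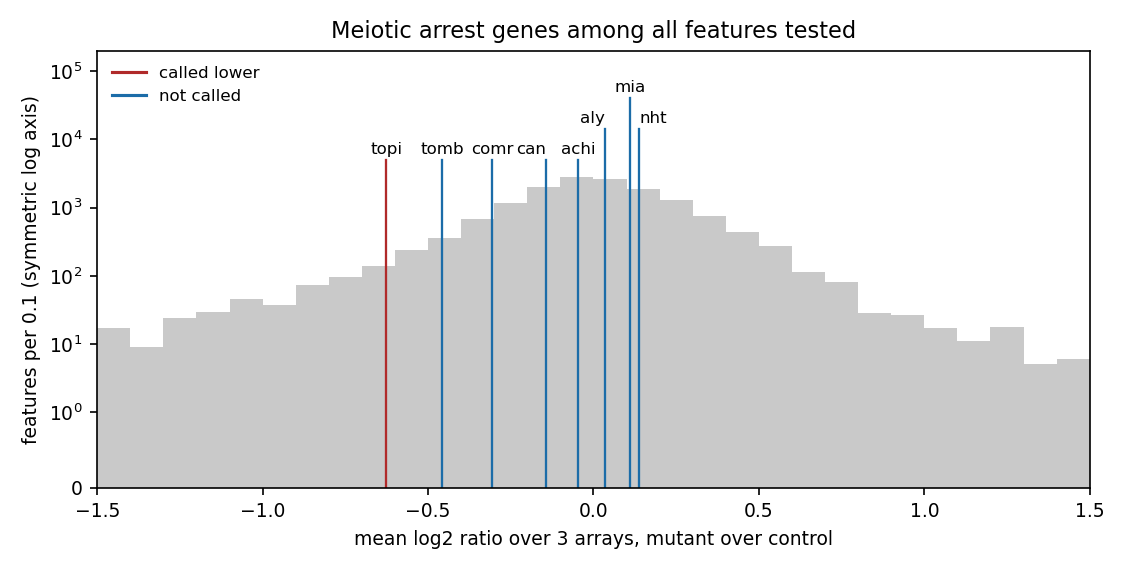
Number of features per 0.1 of mean log2 ratio (symmetric log vertical axis) for the 15415 features tested, with lines at the means of the 8 genes; 61 features beyond 1.5 on either side are not drawn. topi, at -0.63, lies in the lower tail, and can, achi, aly, mia and nht lie near the centre.

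The genes nearest to topi were sought among all named genes by Euclidean distance over the 3 arrays. They were Bka (distance 0.0452), CG12134 (0.0477) and CG12379 (0.0678). Bka read -0.61, -0.52 and -0.69, CG12134 read -0.63, -0.56 and -0.69, and CG12379 read -0.66, -0.58 and -0.66. Their ratios rest on the same 3 arrays and the same control RNA as that of topi, and likeness over 3 points is a weak measure.

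Other regulators of transcription in spermatocytes were taken from a list of 13 genes, 11 of them measured. Of these 1 fell, 0 rose and 10 did not pass, which is 9.09% against the 13.9% called in the table. On all 3 arrays 7 of the 11 lay below 0 and 2 above it (29.9% and 28.9% of all features). At an unadjusted p under 0.05 with limma 6 were lower and 1 higher (18.3% and 18% of all features). The list median was -0.17. The gene that fell was tbrd-1, for a testis bromodomain protein that acts with the testis TAFs, with -0.29, -0.30 and -0.43 on arrays 1, 2 and 3. Its mean was -0.34 ± 0.08 (SD, n = 3; adjusted p 0.0414 with limma), and all arrays were below 0. With grid row and column medians removed it read -0.27 and was not called (adjusted p 0.0597 with limma). Its relatives tbrd-2 (-0.22, adjusted p 0.0691) and tbrd-3 (-0.40, adjusted p 0.06 with limma) were also below 0 on each array without passing.

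The lowest mean in that list was that of kmg, for a zinc-finger protein that keeps genes of other tissues silent in spermatocytes. It read -1.71, -0.62 and -1.10, far below 0 on every array but unevenly so. Its mean of -1.15 ± 0.55 (SD, n = 3) missed the threshold (adjusted p 0.0537 with limma). It passed in 5 of 14 alternative settings, with the lowest adjusted p (0.0325 with limma) where arrays were scaled to a common spread. The gene wuc, for the tMAC paralog of lin-52, read -0.77, -0.15 and -0.60, and its mean of -0.50 ± 0.32 did not pass (adjusted p 0.0903 with limma). The values of kmg and wuc were picked out after they were seen.

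**Figure D4:**
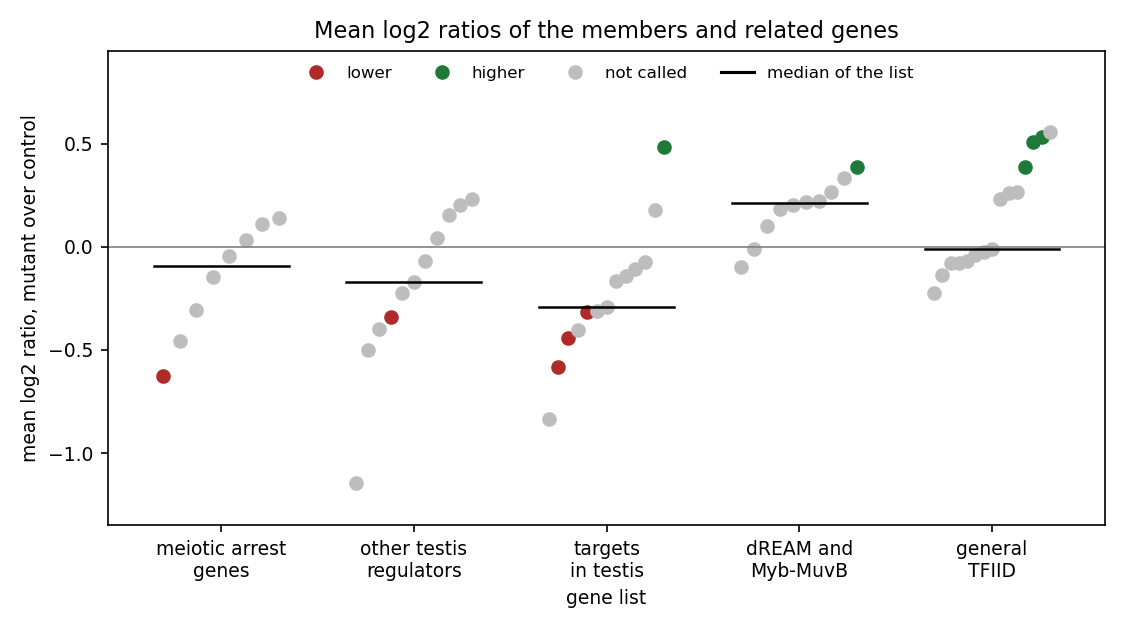
Mean log2 ratio over 3 arrays (vertical axis) of each measured gene of 5 lists, ordered within a list, with red and green for genes called lower and higher by limma, grey for genes not called and a line at the list median. The medians are -0.10 for the meiotic arrest genes, -0.17 for the other testis regulators, -0.29 for their targets in testis, 0.21 for the Myb-MuvB genes and -0.01 for the TFIID genes.

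Genes known to need the meiotic arrest genes in spermatocytes were measured for 13 of 20 listed. Of these 3 fell, 1 rose and 9 did not pass, which is 30.8% called against 13.9% of all features. On all 3 arrays 8 of the 13 lay below 0 and 2 above it (29.9% and 28.9% of all features). At an unadjusted p under 0.05 with limma 8 were lower and 1 higher (18.3% and 18% of all features). The list median was -0.29. The meiotic division genes in it are those whose transcripts need the aly class but not the testis TAFs. CycB, for cyclin B, which the female germ line also uses, read 0.50, 0.38 and 0.57 and rose by 0.48 ± 0.10 (SD, n = 3; adjusted p 0.035 with limma). The Cdc25 phosphatase gene twe read 0.33, 0.03 and 0.17 (mean 0.18, adjusted p 0.192), and the RNA-binding protein gene bol read -0.57, 0.03 and 0.04 (mean -0.16, adjusted p 0.484 with limma). The 3 features of bol disagreed, with means of 0.18, -0.34 and -0.33, and 0 of them passed. Without array 1 the mean of bol was 0.04.

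The 3 genes that fell belong to sperm formation. ProtB, for a protamine-like protein of sperm chromatin, read -0.79, -0.61 and -0.34 and had a mean of -0.58 ± 0.22 (SD, n = 3; adjusted p 0.0452 with limma). Its paralog ProtA read -0.52, -0.10 and -0.58 (mean -0.40, adjusted p 0.098), and signals of such near copies are uncertain to separate. The sperm tail gene dj read -0.35, -0.57 and -0.40 and fell by 0.44 (SD 0.12, n = 3; adjusted p 0.0383 with limma). Mst87F, a sperm tail protein gene, read -0.33, -0.31 and -0.30 and fell by 0.31 (SD 0.02, n = 3; adjusted p 0.0379 with limma). All arrays were below 0 for each of these genes. The lowest mean in the list was that of ocn, which read -0.24, -1.02 and -1.24 (mean -0.83) and did not pass (adjusted p 0.0825 with limma). Also below 0 on every array without passing were Mst98Cb (mean -0.31), janB (-0.29) and djl (-0.14). ProtB was not called with the grid edge kept (adjusted p 0.051), nor Mst87F with grid row and column medians removed (-0.25, adjusted p 0.0559 with limma). The mitofusin gene fzo, a classic target of the can class, missed the threshold at -0.11 (adjusted p 0.316 with limma). Its 2 features disagreed. In the fit of single features one had a mean of -0.58 and was called lower (adjusted p 0.0333 with limma), while the other had a mean of 0.36 and missed the threshold (adjusted p 0.0531).

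The general counterparts of the measured members had means of 0.26 for Taf5, -0.08 for Taf6, -0.07 for Taf4 and 0.10 for mip120, which did not pass. Taf8, the counterpart of sa, rose by 0.39 (adjusted p 0.0417 with limma). Of the counterparts of wuc and rye, which are no members, lin-52 read 0.22 and Taf12 -0.03 without passing. A list of 12 genes covered the Myb-MuvB and dREAM complexes, from which tMAC derives, and the E2F family (E2f1 had a mean of -0.10). Of these 12 genes 10 were measured, 1 rose, 0 fell and 9 did not pass. That is 10% called against 13.9% of the table. Above 0 on all 3 arrays were 8 of the 10 (28.9% of all features), and 5 were higher at an unadjusted p under 0.05 with limma (18% of all features). The list median was 0.21. The gene called was l(3)mbt, for a chromatin repressor that keeps germline genes silent in somatic cells, with 0.46, 0.36 and 0.34 (mean 0.39 ± 0.06, n = 3; adjusted p 0.0364 with limma). The subunit gene mip40, whose protein tMAC shares with that complex, read 0.10, 0.01 and -0.14, on both sides of 0 (mean -0.01 ± 0.12, n = 3; adjusted p 0.906 with limma). Of 15 measured TFIID and TBP-related genes 3 rose, 0 fell and 12 did not pass, where 6.62% of all features were called higher. They were Trf, for a TBP-related factor (0.53 ± 0.03), Taf1 (0.51 ± 0.08) and Taf8 (0.39 ± 0.11), with adjusted p of 0.0332, 0.0344 and 0.0417 with limma. Trf missed the threshold when only its feature of smallest SD was used (0.39, adjusted p 0.0667 with limma). The median of this list was -0.01. Of its 15 genes 7 lay above 0 and 3 below it on all 3 arrays (28.9% and 29.9% of all features). At an unadjusted p under 0.05 with limma 6 were higher and 1 lower (18% and 18.3% of all features).

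Members were set beside their general counterparts on each array, as the difference of their log2 ratios. tomb minus mip120 gave -0.74, -0.38 and -0.55 on arrays 1, 2 and 3, a mean difference of -0.56 ± 0.18 (SD, n = 3). can lay below Taf5 on each array, with a mean difference of -0.41 ± 0.27. mia lay above Taf6 (0.19 ± 0.18) and nht above Taf4 (0.21 ± 0.24), by as little as 0.01 and 0.02 on array 1. The feature of smallest SD of Taf4 read 0.28 and would place nht below it. wuc, which is no member, lay below lin-52, with a mean difference of -0.72 ± 0.45. With 3 arrays an exact sign-flip test cannot go below p = 0.25, so these differences are given as values.

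**Figure D5:**
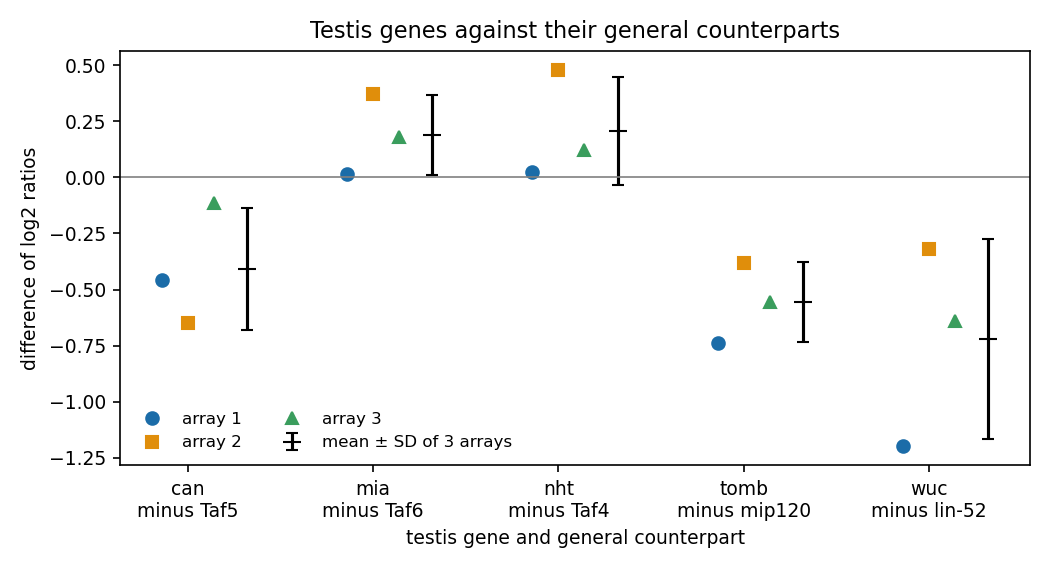
Difference of the log2 ratio of a testis gene and that of its general counterpart (vertical axis), by array, with the mean ± SD of 3 arrays in black. tomb, can and wuc lie below their counterparts on all 3 arrays, and mia and nht lie above theirs, with values near 0 on array 1.

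Genes next to the members in the RefSeq gene table were read as well. The protein-coding gene beside topi on one side, Whamy, had a mean of -0.17 and missed the threshold (adjusted p 0.318 with limma). Beside tomb, CG14015 rose (0.66, adjusted p 0.0437 with limma), which is the direction opposite to that of tomb. Beside nht, CG15262 (-1.60, adjusted p 0.0379) and esg (-0.38, adjusted p 0.0456 with limma) fell, while nht did not pass. Beside vis, which has no feature of its own, fdl rose (0.37, adjusted p 0.043 with limma). The neighbours of aly, can and mia that were measured did not pass.

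Marker genes of cells in or near the ovary moved with some arrays. Of 8 measured markers of the female germ line 0 were called, where 13.9% of all features were. Their means lay between -0.23 and 0.16. Of 6 measured yolk and eggshell genes of follicle cells 0 were called (13.9% of all features). Their median was -2.25, -0.26 and 0.08 on arrays 1, 2 and 3. Of 6 measured fat body genes 3 fell, Pepck1 (-1.80), Lsd-1 (-1.71) and Obp99b (-1.52), and 0 rose, where 7.23% of all features were called lower. The others were Lsp2 (0.39, and 1.37 on array 2), apolpp (-0.34, and 0.38 on array 2) and Fbp1 (-0.03), which did not pass. The 6 genes had a median of -1.30, -0.81 and -0.64 on the 3 arrays. Of 5 measured muscle genes 0 were called (13.9% of all features). topi and comr were not lowest on array 1, while tomb, kmg and wuc were. The called fat body genes fell on every array and differed in this: Lsd-1 and Obp99b were lowest on array 1. Pepck1 was lowest on array 3 (-1.64, -1.74 and -2.02), as was topi. The part of follicle cells or fat body in the ratios of the members was not tested.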

How the data were processed

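The authors deposited a log10 ratio of both channels for 22575 features on each of 3 arrays. The tool was Agilent Feature Extraction 7.1, as named in the submitters' processing notes. How background and dyes were corrected is not given in the sources used here. Per the labels, amplification was linear and started from 100 ng. The sign was turned and the deposited values were converted to log2, as mutant over control. The 636 features at the edge of the grid, 0 of them annotated, were left out. By the platform annotation 17329 features had 1 gene symbol and 326 several, and 4284 others were not listed. Of 10805 genes, 10801 had their gene identifier in RefSeq (GCF_000001215.4), with 0 symbols to update. Older symbols in lists were updated through the same table. Features of 1 gene were averaged.

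The 15415 resulting features were fitted with limma 3.58.1 in R 4.3.3 (intercept, eBayes, 2-sided, Benjamini-Hochberg, threshold 0.05). The procedure was tested on simulated data. Mutant pools came from independent experiments.

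The members and lists were chosen with earlier results of these data known. Genes named were all members, the called genes at the ends of each list (up to 2 on each side), the general counterparts, and the 3 genes nearest to topi. Others were named after their values were seen. Alternatives were centring, scaling, a robust prior, array weights, single features, the feature of smallest SD, removal of exact zeros, a threshold of 0.01, a test against 1.5-fold, the grid edge kept, and each array left out; removal of grid row and column medians was added after seeing the data.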

Additional observations from a re-analysis of the deposited data

How the results depend on the processing

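The table as a whole held 2135 called features with limma. It held 5804 with array weights, 3418 with the feature of smallest SD, 3338 as single features and 2838 with scaled arrays. With grid row and column medians removed it held 2271, without exact zeros 2247 and with the grid edge kept 2299. It held 15 against 1.5-fold, and 0 at a threshold of 0.01 or with any 1 array left out (3277 to 4710 at an unadjusted p under 0.05). Of the meiotic arrest genes 1 was called; 2 were with scaled arrays (topi and tomb), 3 with array weights (topi, tomb and comr), 2 with grid row and column medians removed (topi and tomb, -0.47, adjusted p 0.0428), and 0 at 0.01, against 1.5-fold, or with any 1 array left out. topi (-0.63) was not called at 0.01 or against 1.5-fold, and read -0.68 to -0.59 with 1 array left out. It stayed called under the other 9 settings, but some of these could not move its ratio. With 1 feature and no exact zeros, topi kept its ratio as a single feature, with the feature of smallest SD and without exact zeros. Centring also left it at -0.63. tomb passed with scaled arrays (-0.44), array weights (-0.35) and grid medians removed (-0.47), and comr with array weights (-0.39). aly changed sign with its first feature alone (-0.21), with array weights (-0.080) and without array 1 (-0.082). achi changed sign with its first feature, which has the smaller SD (0.23), without array 2 (0.059) and without array 3 (0.055). aly, achi, can, mia and nht passed in 0 settings.

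The other testis regulators had 1 called, and 3 with scaled arrays, 6 with array weights, 3 with the feature of smallest SD and 2 without exact zeros. With grid medians removed 1 was called as well, but it was kmg (adjusted p 0.0435) and not tbrd-1 (-0.27, adjusted p 0.0597). The Myb-MuvB genes had 1, and 2 with scaled arrays, 5 with array weights, 3 with the feature of smallest SD and 4 single features. The TFIID genes had 3, and 8 with array weights, 5 with the feature of smallest SD and 5 single features; Trf was lost with its feature of smallest SD (0.39, adjusted p 0.0667) and Taf8 on 1 of its features alone (0.21, adjusted p 0.070). The targets in testis had 4, and 7 with array weights, 7 with the feature of smallest SD and 8 single features, 1 feature of CycB not passing (0.32, adjusted p 0.0547). They had 3 with the grid edge kept, where ProtB was lost (adjusted p 0.051), and Mst87F was lost with grid medians removed (-0.25, adjusted p 0.0559). All 4 lists had 0 at 0.01, against 1.5-fold and with any 1 array left out. Among the genes of these lists, 1 feature of Taf4 (0.28), Taf11 (-0.12), Taf12 (0.044), Tbp (0.050), bol (0.18), fzo (0.36) and betaTub85D (0.088) had the opposite sign to the gene's mean, which for the first 4 was the feature of smallest SD. Tbp also changed sign with array weights (0.098), and Taf10b with grid medians removed (0.018). With 1 array left out, Tbp (0.049 and 0.016 without arrays 1 and 3), Taf12 (0.0011) and bol (0.038) without array 1, Mi-2 without array 2 (-0.023) and mip40 without array 3 (0.052) did so. The cause was not tested. Signal over background is not known for any feature, so weak probes could not be set apart. No paired analysis was possible because all samples form 1 group against a common control RNA.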
